A study of Homo sapiens with 4 samples.

Results

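Giant genes, here a list of 57 protein-coding genes with spans near 1 megabase, were followed in nascent RNA of HCT116 cells, a human colorectal carcinoma line. The members are the genes named in the list, matched by Ensembl ID and symbol, and all 57 were found among the 60656 gene IDs counted in every library. The rule that names them uses no measured value, but the list was chosen with earlier results of these data known. Many of them span common fragile sites, the chromosome regions that break most readily when replication is slowed. An RNA polymerase that transcribes such a gene stays on it for hours, and the DNA ahead of it is overwound while the DNA behind it is underwound. Type II topoisomerases, TOP2A and TOP2B, pass one DNA duplex through another and remove both kinds of supercoil. Very long genes are used most in neurons and muscle, and several are transcribed in epithelial cells.

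The DKO group has 2 libraries from cells in which both TOP2A alleles carry an auxin-inducible degron and TOP2B is knocked out by CRISPR/Cas9. Those cells received 500 µM auxin for 8 h, which removes the tagged TOP2A protein. The WT group, also of 2 libraries, is labelled wildtype, while the protocol names the TOP2A-degron line with intact TOP2B as the line set against it, so whether WT carries the degron is not stated. No auxin is recorded for WT, and the number of clones is not given, so enzyme loss, auxin and clone cannot be told apart. Palbociclib, which blocks CDK4 and CDK6, held both groups in G1 (2 µM, 28 h), and the cells were then labelled with 1 mM 4-thiouridine, a modified uridine taken up into new RNA, for 30 min (TTchem-seq). Nothing in the labels says that replicates were separate cultures, so the p-values measure the spread between these libraries, which may be technical.

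Libraries held 53000795 and 53777749 reads in DKO and 51718468 and 51142867 reads in WT. Levels are given as CPM, counts scaled to a common library size with edgeR's TMM factors. RNA of TOP2B had 147 and 150 CPM in DKO and 140 and 143 CPM in WT, so gene counts do not show its knockout. TOP2A, which is removed as a protein, had 165 and 168 CPM in DKO and 126 and 122 CPM in WT (log2 fold change 0.42 ± 0.05, adjusted p = 3.46e-15). Of 10 colon epithelial markers 8 were tested. All 10 summed to 444 and 430 CPM in DKO and 503 and 470 CPM in WT, and CDX1 stayed under 10 reads in every library. CDH1, KRT8, KRT18 and ELF3 were lower in DKO and none of that list was higher. The 5 immune and 5 muscle markers all stayed under 10 reads. Of 10 neuronal markers SYT1 and SNAP25 were higher in DKO and none was lower. The sum over that list was 553 and 629 CPM in DKO and 165 and 171 CPM in WT, of which SYT1, itself a gene of 588 kb, held 513 and 585 CPM in DKO and 131 and 135 CPM in WT. STMN2 and ELAVL4 stayed under 10 reads and NEFL was at 0. Of 7 mesenchymal markers 3 were tested, DCN and PDGFRB stayed under 10 reads and COL1A2 was at 0. The list summed to 101 and 110 CPM in DKO and 54.4 and 55.4 CPM in WT, and TWIST1 and ZEB1 were higher and none lower in DKO. Melanocyte markers summed to 22.3 and 24.1 CPM in DKO and 30.6 and 30.3 CPM in WT. Within that list DCT was higher and MITF lower in DKO, and TYR, TYRP1, MLANA and SOX10 stayed under 10 reads. The part of these marker differences in the results that follow was not tested.

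RefSeq spans on GRCh38 ran from 414 kb for TCF4 to 2474 kb for RBFOX1, with 29 members at 1000 kb or more and 2, TCF4 and DOCK4, under 500 kb. Reads on the giant genes made up 1.376% and 1.478% of the DKO libraries, against 1.384% and 1.426% of the WT libraries. Levels per length differed over 4 orders of magnitude. In WT, 9 members stood at 100 CPM per 100 kb of span or more, led by FAF1 at 206, and 19 stood under 0.1, with AUTS2 lowest at 0.0195. The 6 members with the highest CPM carried 46.4% of the list's summed CPM in WT. Whether reads were counted over exons or over whole gene bodies is not given in the sources used here, so a value per span is comparable between genes only if introns were counted.

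**Figure D1:**
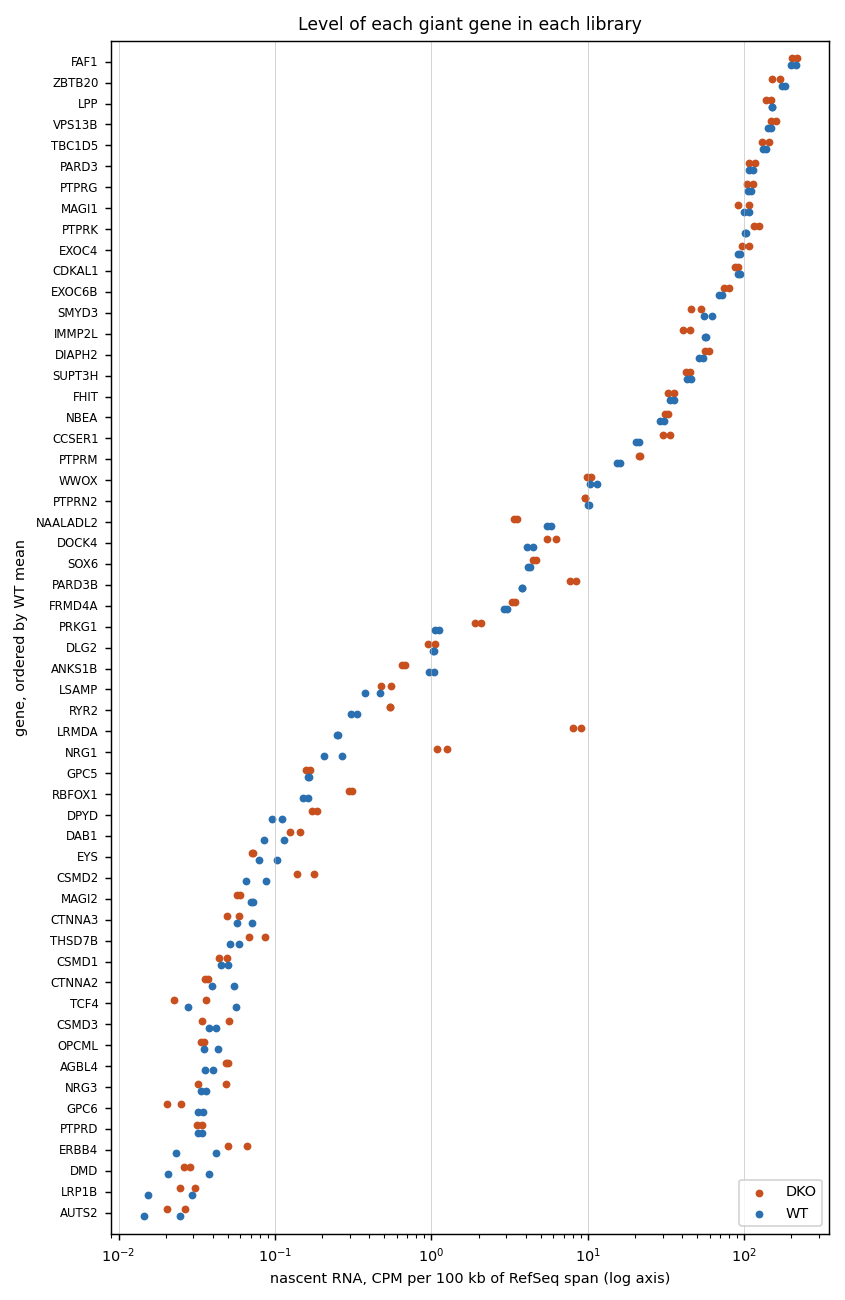
Nascent RNA of 56 of the 57 giant genes in each of the 4 libraries, as CPM per 100 kb of RefSeq span on a log axis, ordered by the WT mean. Points are single libraries, DKO in orange and WT in blue; LRMDA and NRG1 have DKO points far to the right of their WT points, while FAF1, PTPRG and FHIT overlap.

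No member had fewer than 10 reads in every library, so none was silent by that rule. TCF4, a basic helix-loop-helix factor, came closest, with 8 and 5 reads in DKO and 6 and 12 reads in WT, and was the 1 member not tested. AUTS2 had 13 and 17 reads in DKO and 9 and 15 reads in WT. As many as 13 members stayed under 50 reads in every library, DMD among them. The gene of dystrophin, which links the cytoskeleton of muscle fibres to their membrane, had 34 and 31 reads in DKO and 24 and 43 reads in WT over 2220 kb. Reads this sparse cannot be told from background in a table of gene counts. Of the 56 tested members, 56 had at least 10 reads in both DKO libraries and 55 in both WT libraries, so the filter on low counts did not depend on a rise in DKO.

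With a threshold of 0.05 on the adjusted p, 18 of the 56 tested members rose in DKO and 6 fell (edgeR quasi-likelihood test, Benjamini-Hochberg over 19103 genes), which is 32.1% and 10.7% of them. Of all tested genes 19% were called higher and 21.1% lower, and the members' share called in either direction, 42.9%, lies near the 40.1% of all tested genes. The median log2 fold change of the members was 0.06, against -0.01 for all tested genes. Of the other 241 tested protein-coding genes of 500 kb or more, 35.7% were called higher, 10.8% lower and 46.5% in either direction, with a median of 0.14. Groups did not overlap, with DKO above, for 24 members and, with DKO below, for 13, against 33% and 34.9% of all tested genes. Calls of at least 2-fold were 4 rises and no fall, against 3.22% and 1.33% of all tested genes. Of the 18 rises 8 held under every processing alternative that was run, namely LRMDA, NRG1, PARD3B, RBFOX1, PRKG1, RYR2, CCSER1 and PTPRM, and of the 6 falls NAALADL2 and ANKS1B did.

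**Figure D2:**
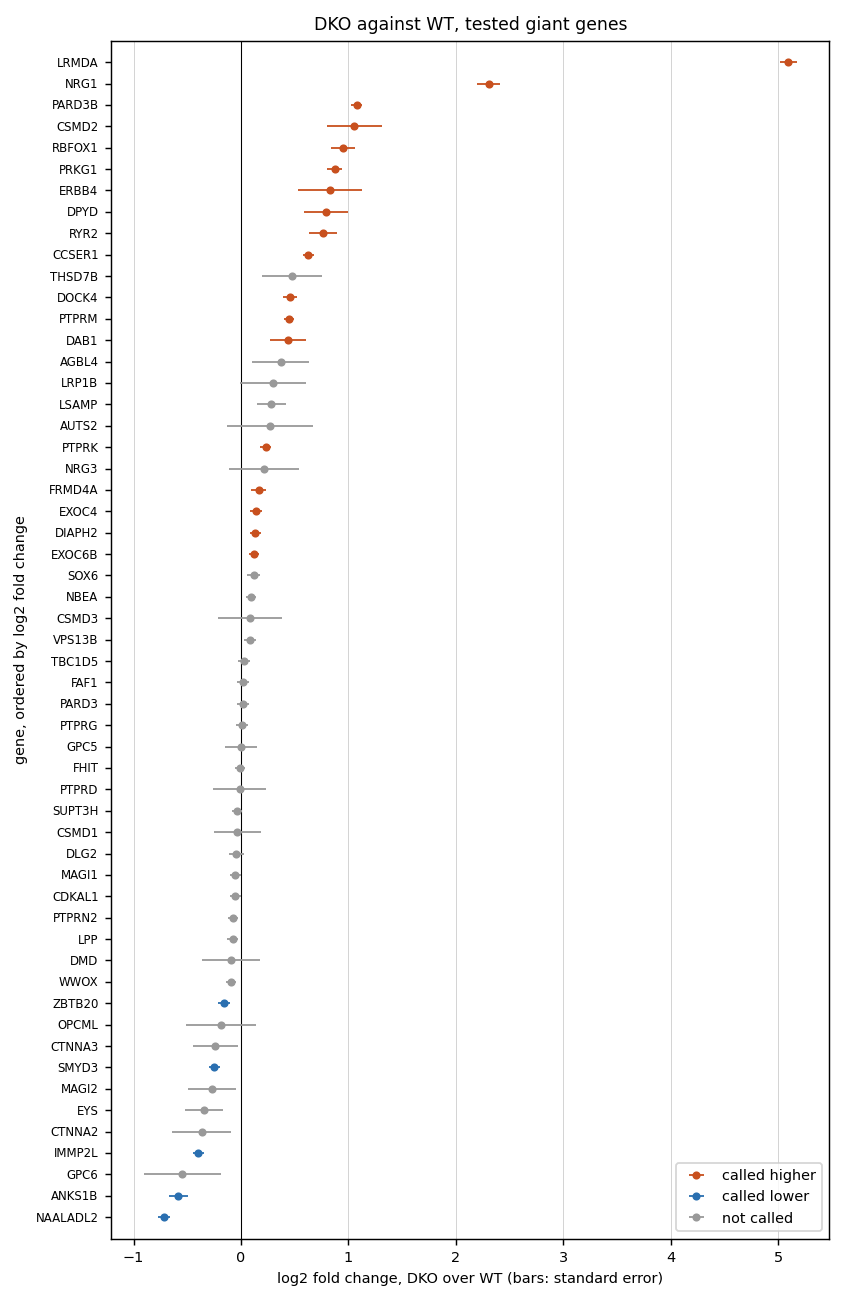
Log2 fold change of DKO over WT for 55 of the 56 tested giant genes, with standard errors as bars (n = 2 libraries per group). Orange points were called higher (18), blue points lower (5) and grey points were not called; LRMDA stands at 5.09 and NAALADL2 at -0.72.

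LRMDA, a leucine-rich repeat gene linked to melanocyte differentiation, showed by far the widest difference. It had 90.8 and 102 CPM in DKO, against 2.83 and 2.8 CPM in WT. Both DKO libraries lie far above both WT libraries. The log2 fold change was 5.09 ± 0.08 (SE, adjusted p = 6.2e-133), a 34.2-fold difference, over alternatives from 5.01 to 5.18. The gene (ENSG00000148655) lies on chromosome 10 from 75431624 to 76560168 (hg38). Among the promoter windows of RefSeq (GRCh38.p14), which run from 250 bases before to 50 after a start, LRMDA has 2, both on the plus strand and both well inside the span, 215.9 kb and 351.1 kb from its outer end. They are shown with the windows of PARD3B and of the 2 members with the lowest fold change. LRMDA and PARD3B had the 2 largest called rises among members with a listed window, and NRG1 has none. Capitals mark matches, on either strand, to the TATA box letters TATAAA, to the E-box CACGTG, to the shorter motif GCGTG, to the CCAAT box and to the GC box letters GGGCGG.
LRMDA first start, chr10:75647259-75647558, plus strand: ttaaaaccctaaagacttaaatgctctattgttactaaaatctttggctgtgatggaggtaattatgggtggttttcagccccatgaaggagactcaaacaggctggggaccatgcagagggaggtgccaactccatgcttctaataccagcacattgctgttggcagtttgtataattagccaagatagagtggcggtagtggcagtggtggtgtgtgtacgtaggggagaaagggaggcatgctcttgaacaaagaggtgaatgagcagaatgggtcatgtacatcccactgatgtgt
LRMDA second start, chr10:75782511-75782810, plus strand: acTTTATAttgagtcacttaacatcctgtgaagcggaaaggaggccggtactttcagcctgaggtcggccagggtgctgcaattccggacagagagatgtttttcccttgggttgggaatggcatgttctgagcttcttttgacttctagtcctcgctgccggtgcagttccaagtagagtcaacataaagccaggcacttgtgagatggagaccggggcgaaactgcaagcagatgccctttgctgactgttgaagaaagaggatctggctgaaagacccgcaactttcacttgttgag
PARD3B, chr2:204545225-204545524, plus strand: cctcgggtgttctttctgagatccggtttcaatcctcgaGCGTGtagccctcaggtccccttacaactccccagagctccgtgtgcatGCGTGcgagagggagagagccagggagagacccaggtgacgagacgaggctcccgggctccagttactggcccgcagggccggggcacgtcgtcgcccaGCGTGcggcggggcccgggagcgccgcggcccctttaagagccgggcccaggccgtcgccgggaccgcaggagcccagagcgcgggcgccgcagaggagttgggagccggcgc
NAALADL2, chr3:174859084-174859383, plus strand: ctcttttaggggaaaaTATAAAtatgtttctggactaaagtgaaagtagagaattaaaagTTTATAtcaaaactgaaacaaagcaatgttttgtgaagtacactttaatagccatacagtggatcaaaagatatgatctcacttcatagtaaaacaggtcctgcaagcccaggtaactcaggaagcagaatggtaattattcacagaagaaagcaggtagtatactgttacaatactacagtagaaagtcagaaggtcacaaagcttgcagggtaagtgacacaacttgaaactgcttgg
ANKS1B, outermost of 7 starts, chr12:99984887-99985186, minus strand: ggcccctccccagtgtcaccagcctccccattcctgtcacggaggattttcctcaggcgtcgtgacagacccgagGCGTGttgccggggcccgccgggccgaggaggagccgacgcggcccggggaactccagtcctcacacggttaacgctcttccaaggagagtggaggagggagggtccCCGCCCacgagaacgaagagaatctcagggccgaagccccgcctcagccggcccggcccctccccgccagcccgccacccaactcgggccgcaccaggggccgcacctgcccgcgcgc
The windows differ in base composition within each direction. CG dinucleotides number 2 and 9 in LRMDA and 33 in PARD3B, which both rose, and 0 in NAALADL2 and 30 in ANKS1B, which both fell. The NAALADL2 window lies 418.4 kb inside the gene and holds TATAAA on both strands. Across the 126 windows of 49 members the median was 9 CG dinucleotides, against 14 in all 35116 windows. TATAAA was found in 19% of members' windows and 11.5% of all windows, GGGCGG in 38.9% of members' windows and 45% of all windows, and CCAAT in 27% of members' windows and 34.6% of all windows. For GCGTG the shares were 34.9% and 36.5%, and for CACGTG 8.73% and 7.26%. Windows of one gene often overlap, and a match is a description of letters only. No window is listed for CSMD1, CSMD3, EXOC6B, LRP1B, NRG1, PARD3, PTPRN2 and VPS13B.

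Within the ERBB growth factor pathway the ligand gene NRG1 rose. NRG1, whose product binds the receptors ERBB3 and ERBB4, had 14.3 and 12.4 CPM in DKO and 2.35 and 3.05 CPM in WT. The groups are well apart, and the log2 fold change was 2.31 ± 0.11 (adjusted p = 1.2e-50), or 4.94-fold. ERBB4, a receptor of neuregulins, had 31 and 41 reads in DKO and 14 and 25 reads in WT. It was called (0.83 ± 0.30, adjusted p = 0.019), but lost the call without DKO replicate 2 (0.62, adjusted p = 0.233), without WT replicate 1 (0.46, 0.37), without WT replicate 2 (1.31, 0.0715), without a count filter (0.82, 0.235) and with DESeq2 (0.84, 0.218). NRG3, a second ligand gene of ERBB4, was not called at 19 and 29 reads in DKO and 21 and 19 reads in WT.

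Of the 9 polarity and scaffold genes 3 rose and 1 fell, against 19% higher and 21.1% lower of all tested genes. PARD3, a core scaffold of apical-basal polarity, had 757 and 826 CPM in DKO and 761 and 801 CPM in WT, with overlapping groups and a log2 fold change of 0.02 (adjusted p = 0.81). Its relative PARD3B had 82.1 and 90.3 CPM in DKO and 40.8 and 41.1 CPM in WT. PARD3B thus rose 2.11-fold (log2 1.07 ± 0.05, adjusted p = 1.0e-48), and the gap in level per length between the relatives was 14-fold in DKO, against 29.1-fold in WT. ANKS1B, which encodes an ankyrin repeat protein of synapses, fell to 8.15 and 8.53 CPM in DKO, against 12.1 and 12.9 CPM in WT (log2 -0.59 ± 0.09, adjusted p = 3.7e-09). MAGI1, a scaffold of epithelial junctions, stood at 99.3 CPM per 100 kb in DKO and 103 in WT, and its neuronal relative MAGI2 at 0.0587 in DKO and 0.071 in WT. Neither was called. DLG2, a postsynaptic scaffold gene of 2173 kb, had 20.6 and 22.8 CPM in DKO and 22.5 and 22.3 CPM in WT, and the groups overlap. LPP, a gene of focal adhesions, had 1019 and 1091 CPM in DKO and 1117 and 1111 CPM in WT (-0.08, adjusted p = 0.25). In the same group DAB1, an adaptor of reelin signalling (0.44 ± 0.17, adjusted p = 0.029), and FRMD4A, a FERM domain gene (0.16 ± 0.07, adjusted p = 0.045), completed the rises. DAB1 lost its call in 5 of 11 alternatives, among them DESeq2 (0.44, adjusted p = 0.225) and the runs without DKO replicate 1 (0.32, 0.224), WT replicate 1 (0.25, 0.406) or WT replicate 2 (0.65, 0.084). FRMD4A lost it in 8 of 11, including each run with a library left out (adjusted p of 0.0501 to 0.311).

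Surface and adhesion genes were mostly at trace level, with a median of 0.597 CPM in WT. Of 12 tested only CSMD2 was called, against 40.1% of all tested genes and 26.7% of other protein-coding genes under 1 CPM in WT. CSMD2, 1 of 3 related genes of long membrane proteins with CUB and sushi domains, had 48 and 62 reads in DKO and 22 and 29 reads in WT. The groups do not overlap, and the log2 fold change was 1.05 ± 0.25 (adjusted p = 0.00028). Its call was lost without WT replicate 1 (0.86, adjusted p = 0.132), without WT replicate 2 (1.28, 0.0528) and without a count filter (1.05, 0.0695). CSMD1 (-0.04, adjusted p = 0.92) and CSMD3 (0.09, adjusted p = 0.85) were not called at 22 to 54 reads per library. LSAMP, a neural cell adhesion gene, had 164 and 189 reads in DKO and 126 and 154 reads in WT (0.28 ± 0.14, adjusted p = 0.087). The other uncalled genes were LRP1B, THSD7B, EYS, OPCML, the glypican genes GPC5 and GPC6, and the alpha-catenin genes CTNNA2 and CTNNA3, with log2 fold changes from -0.55 for GPC6 to 0.48 for THSD7B.

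Among the receptor tyrosine phosphatases, most of which reverse tyrosine phosphorylation at the cell surface, PTPRM and PTPRK rose. PTPRM had 177 and 182 CPM in DKO and 128 and 135 CPM in WT (0.45 ± 0.05, adjusted p = 2.1e-16), with groups apart. PTPRK, which like PTPRM binds its own kind on neighbouring cells, had 634 and 684 CPM in DKO and 567 and 559 CPM in WT (0.23 ± 0.05, adjusted p = 9.0e-05). Its call was lost without WT replicate 1 (0.24, adjusted p = 0.116), without WT replicate 2 (0.22, 0.109) and without a count filter (0.22, 0.0607). PTPRG had 768 and 832 CPM in DKO and 774 and 817 CPM in WT, so the groups overlap (0.01, adjusted p = 0.92). PTPRD is nearly the longest member at 2299 kb, and had 42 and 39 reads in DKO and 41 and 38 reads in WT (-0.01, adjusted p = 0.97). PTPRN2, an islet autoantigen gene, had 99.9 and 101 CPM in DKO and 106 and 105 CPM in WT and was not called (-0.07, adjusted p = 0.23).

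The 2 members best known as fragile-site genes, FHIT and WWOX, were not called. FHIT, which encodes a small nucleotide hydrolase and covers 1504 kb, had 493 and 533 CPM in DKO and 501 and 531 CPM in WT. The groups overlap almost fully (-0.01 ± 0.05, adjusted p = 0.91). WWOX, an oxidoreductase gene with WW domains, had 110 and 116 CPM in DKO and 114 and 127 CPM in WT (-0.09 ± 0.05, adjusted p = 0.10, and -0.14 with adjusted p = 0.0289 without DKO replicate 2). IMMP2L and CCSER1, which also lie at fragile sites, were called in opposite directions. CCSER1, a gene of 1478 kb for a serine-rich coiled-coil protein, had 448 and 498 CPM in DKO and 301 and 313 CPM in WT (0.63 ± 0.05, adjusted p = 3.4e-25). IMMP2L, which encodes a peptidase of the inner mitochondrial membrane, had 367 and 407 CPM in DKO and 504 and 516 CPM in WT (-0.40 ± 0.05, adjusted p = 3.4e-12, and 0.0513 without WT replicate 1). NAALADL2, a gene related to glutamate carboxypeptidases, had 46.1 and 48 CPM in DKO and 75.5 and 79.1 CPM in WT. Its libraries of each group lie close together, and it fell 1.64-fold (-0.72 ± 0.05, adjusted p = 2.5e-29).

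Of the remaining enzyme and channel genes PRKG1, RYR2 and DPYD rose. PRKG1, the kinase gene of cyclic GMP signalling, had 24.8 and 27.1 CPM in DKO and 13.7 and 14.6 CPM in WT (0.87 ± 0.07, adjusted p = 2.5e-24). RYR2, the calcium release channel of heart muscle, had 4.32 and 4.29 CPM in DKO and 2.66 and 2.41 CPM in WT (0.76 ± 0.13, adjusted p = 2.2e-07). The muscle markers were near 0 in both groups. DPYD, whose enzyme breaks down uracil and fluorouracil, had 83 and 78 reads in DKO and 42 and 48 reads in WT (0.79 ± 0.20, adjusted p = 0.00075, and 0.0972 without WT replicate 1). FAF1, a gene of ubiquitin-dependent protein turnover, had 1059 and 1132 CPM in DKO and 1045 and 1113 CPM in WT and was not called (0.02, adjusted p = 0.79). CDKAL1, a tRNA-modifying enzyme gene, was not called either (-0.05, adjusted p = 0.42).

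Genes of transcription, RNA processing and the genome gave 1 rise and 3 falls among 7 tested, against 19% higher and 21.1% lower of all tested genes. RBFOX1, a splicing factor of neurons and muscle and the longest member, had 391 and 408 reads in DKO and 193 and 207 reads in WT. Both DKO libraries lie well above both WT libraries, a rise of 1.93-fold (0.95 ± 0.11, adjusted p = 4.4e-14). ZBTB20, a zinc finger repressor and the member with the most reads in WT, had 1258 and 1404 CPM in DKO and 1509 and 1458 CPM in WT (-0.16 ± 0.06, adjusted p = 0.017). SMYD3, a lysine methyltransferase gene, had 347 and 403 CPM in DKO and 421 and 471 CPM in WT (-0.25 ± 0.05, adjusted p = 1.6e-05). Groups do not overlap for ZBTB20 and SMYD3, and both calls were lost in several alternatives. ZBTB20 missed the threshold without DKO replicate 1 (-0.08, adjusted p = 0.341), WT replicate 1 (-0.13, 0.374) or WT replicate 2 (-0.18, 0.21), without a count filter (-0.16, 0.202) and with upper quartile factors (-0.12, 0.138). SMYD3 missed it without WT replicate 1 (-0.33, 0.117) or WT replicate 2 (-0.17, 0.289), without a count filter (-0.26, 0.198) and with DESeq2 (-0.24, 0.186). SOX6 and SUPT3H were not called.

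In the group of trafficking genes EXOC4 and EXOC6B, subunits of the exocyst that tethers vesicles to the plasma membrane, rose slightly. EXOC4 had 820 and 910 CPM in DKO and 778 and 792 CPM in WT (0.14 ± 0.05, adjusted p = 0.025), and EXOC6B had 480 and 516 CPM in DKO and 449 and 466 CPM in WT (0.12 ± 0.05, adjusted p = 0.043). VPS13B, a lipid transfer protein gene of the Golgi, had 1284 and 1371 CPM in DKO and 1232 and 1273 CPM in WT, and its groups do not overlap, yet it was not called (0.08, adjusted p = 0.23). NBEA (0.09, adjusted p = 0.12) and TBC1D5 (0.03, adjusted p = 0.71) were not called. Of the cytoskeletal genes the formin gene DIAPH2 (0.13 ± 0.05, adjusted p = 0.024) and DOCK4, an activator of Rac at 26.2 and 30.2 CPM in DKO and 21.5 and 19.6 CPM in WT (0.45 ± 0.07, adjusted p = 1.9e-09), rose, while DMD (-0.09, adjusted p = 0.82) and AGBL4 (0.37, adjusted p = 0.28) were not called. EXOC4, EXOC6B and DIAPH2 each missed the threshold without DKO replicate 2, WT replicate 1, WT replicate 2 or the count filter, and EXOC4 then stood at 0.06 (adjusted p = 0.434), 0.13 (0.377), 0.15 (0.266) and 0.13 (0.265). DOCK4 missed it without WT replicate 1 (0.52, adjusted p = 0.0579), without WT replicate 2 (0.39, 0.0647) and without a count filter (0.45, 0.0582).

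Signed fold change was nearly uncorrelated with span among the members. Across the 56 tested genes, which share 4 libraries and are not independent, log2 fold change and log2 span had a Pearson r of -0.01 and a Spearman rho of -0.13. The size of the fold change without its sign had a rho of 0.17 with span over the 56 genes and of 0.34 (r of 0.21) over the 41 with a mean of at least 1 CPM. Longer members had lower WT levels (rho of -0.54), so span and level are not separate here. The 29 members of 1000 kb or more had 8 rises and 2 falls with a median of -0.01, and the 26 between 500 and 1000 kb had 9 rises and 4 falls with a median of 0.09. In other protein-coding genes the shares were 22.5% higher and 5% lower of 40 at 1000 kb or more, and 38.3% higher and 11.9% lower of 201 between 500 and 1000 kb. Their medians were 0.18 at 1000 kb or more and 0.14 between 500 and 1000 kb. The unsigned difference was wider at low WT level, with a rho of -0.43 between absolute log2 fold change and log2 WT CPM over 56 members and -0.58 over those 41. The signed fold change had an r of -0.2 with WT level over the 56 members and of -0.38 over the 41. WT level is also the denominator of the fold change, so the 2 measures are not independent. Counting error is also wider at low level, and its part was not tested. The 31 members of at least 10 CPM in WT had a median absolute log2 fold change of 0.12, the 10 between 1 and 10 CPM one of 0.39, and the 15 under 1 CPM one of 0.30. Between 1 and 10 CPM, 5 of 10 members were called higher and none lower. Among other long genes of that level 27 of 37 were higher and 2 lower, and among all other protein-coding genes of that level 18.1% were higher and 26.8% lower. Of the other long genes at 3 or more on the log2 CPM scale, the largest called rises were DLC1, a RhoGAP gene (14.3-fold), CADPS2, a gene of dense-core vesicle release (9.81-fold), and MACROD2, a fragile-site gene of 2058 kb on chromosome 20 (7.91-fold). The largest falls were DCDC1 (-0.67), TASP1 on chromosome 20 (-0.66) and TAFA2 (-0.58).

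**Figure D3:**
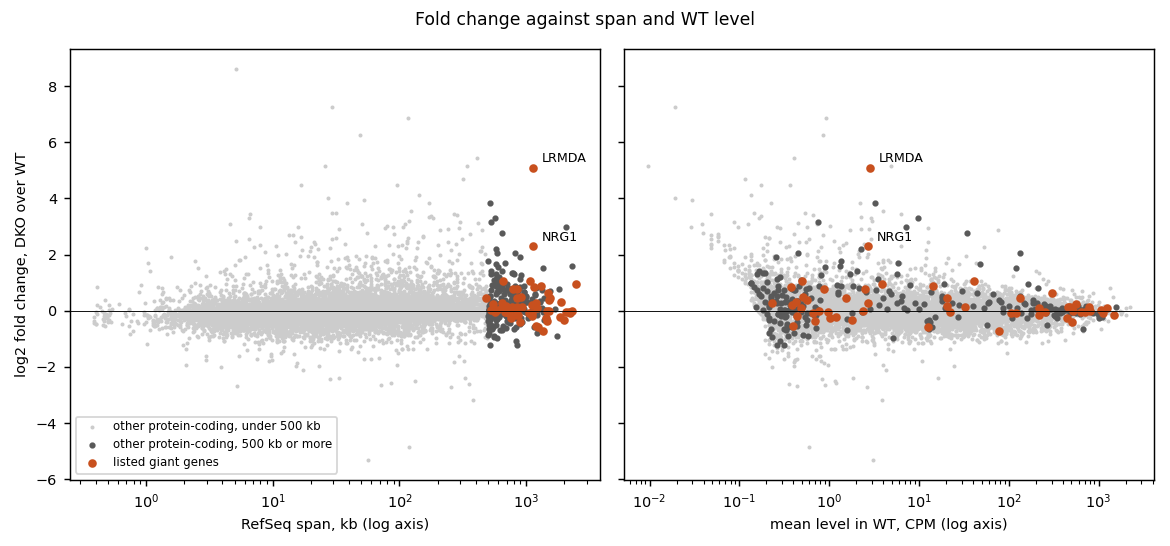
Log2 fold change of DKO over WT against RefSeq span in kb (left) and mean WT level in CPM (right), both on log axes, for all tested protein-coding genes. Orange points are the 56 tested giant genes, dark grey points the other 241 genes of 500 kb or more and light grey points shorter genes. The giant genes scatter around 0 at every span. The points far from 0, LRMDA and NRG1, have low levels in WT, which is the denominator of the fold change.

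The libraries of a group differed among themselves in a way that moved with span. Of the 31 members of at least 10 CPM in WT, 30 were higher in DKO replicate 2 than in DKO replicate 1, with a median log2 ratio of 0.11, and 25 were higher in WT replicate 2 than in WT replicate 1, with a median of 0.07. Of protein-coding genes under 500 kb at that level, 49% and 53.4% were. By span, the median ratio of the DKO libraries was -0.04 under 50 kb and 0.09 at 1000 kb or more, and that of the WT libraries -0.01 and 0.06. The median fold change of DKO over WT was -0.06 under 50 kb, 0.07 from 200 to 500 kb, 0.06 from 500 to 1000 kb and 0.00106 at 1000 kb or more. The last class held 17 genes. Other protein-coding genes of that span, taken at any level and without the members, had a median of 0.18 over 40 genes. For the 31 members the median log2 ratio was 0.12 for DKO replicate 2 over WT replicate 1, with 22 higher, and -0.08 for DKO replicate 1 over WT replicate 2, with 13 higher. Between libraries of the same number it was -0.01 for replicate 1, with 14 higher, and 0.04 for replicate 2, with 20 higher. Small differences of the highly transcribed members, such as those of EXOC4, EXOC6B, DIAPH2 and ZBTB20, are near the size by which replicates differ. The source of the difference between replicates was not tested.

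**Figure D4:**
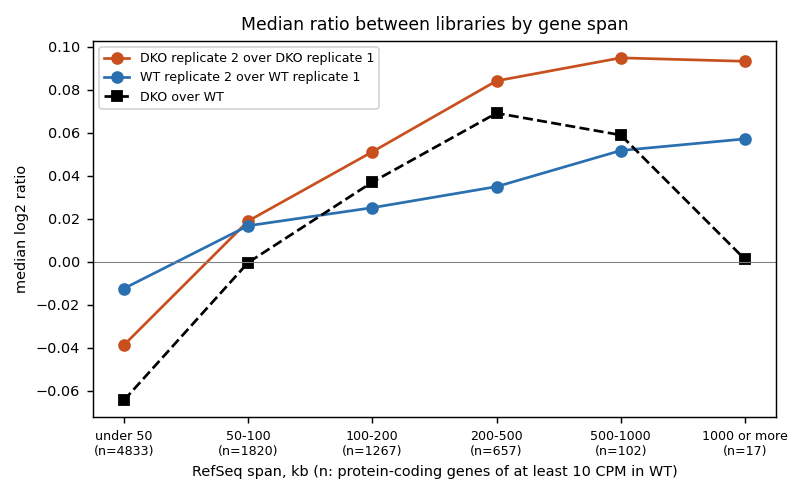
Median log2 ratio between libraries in 6 classes of RefSeq span (kb), over protein-coding genes of at least 10 CPM in WT. Orange gives DKO replicate 2 over replicate 1, blue WT replicate 2 over replicate 1 and the black dashed line DKO over WT. The replicate lines climb with span to 0.09 and 0.06. DKO over WT is at 0.00106 in the longest class, which holds 17 genes.

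The nearest tested genes on either side of the giant genes were called in both directions. They are not always close, with gaps from 0.17 kb (SOX6 and C11orf58) to 11060 kb (GPC5 and SPRY2). Of the neighbours named here, RAPH1 lies 1010 kb away, MAK16 711.1 kb, GJB5 589.2 kb and WRN 463.1 kb. Of the 56 nearest tested protein-coding genes at lower coordinates 21 were higher and 8 lower in DKO, and of the 56 at higher coordinates 17 were higher and 8 lower, against 19% higher and 21.1% lower of all tested genes. Of 24 called members, the neighbour at lower coordinates was called the same way for 10 and the opposite way for 4, and at higher coordinates for 7 and 7. Some neighbours are members themselves, and the pair of IMMP2L and DOCK4 counts as opposite on both sides. Whether these counts differ from what the shares of calls alone would give was not tested. Beside LRMDA, ZNF503 lies 29.71 kb away and had 34 and 40 reads in DKO and 19 and 19 reads in WT (0.91 ± 0.30, adjusted p = 0.0087). That call was lost without DKO replicate 2 (0.79, adjusted p = 0.104), WT replicate 1 (0.90, 0.127) or WT replicate 2 (0.92, 0.104), without a count filter (0.90, 0.0586) and with DESeq2 (0.92, 0.149). On the other side KCNMA1, a potassium channel gene 309.4 kb away, was not called (0.05, adjusted p = 0.71). PARD3B lies 62.34 kb from NRP2, a receptor of semaphorins and VEGF, which had 339 and 340 reads in DKO and 66 and 52 reads in WT. NRP2 rose 5.55-fold (2.47 ± 0.14, adjusted p = 6.4e-39), more than PARD3B itself, while RAPH1 on the far side was not called (-0.04, adjusted p = 0.57). The neighbours of NRG1, WRN (0.11, adjusted p = 0.048) and MAK16 (-0.12, adjusted p = 0.047), were at the edge of the threshold, and each missed it without DKO replicate 2, WT replicate 1 or WT replicate 2 (WRN 0.08, 0.05 and 0.17; MAK16 -0.02, -0.15 and -0.10). Beside CSMD2, ZSCAN20 fell (-0.24, adjusted p = 0.0039, 0.161 without WT replicate 1 and 0.0826 without a count filter) and GJB5 was not called at 8 to 12 reads per library.

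Overlapping genes gave contrasts of their own. RUNX2, the bone lineage factor that overlaps part of SUPT3H, had 45.9 and 47.7 CPM in DKO and 19.3 and 18.8 CPM in WT, a rise of 2.46-fold (1.30 ± 0.06, adjusted p = 6.6e-50). SUPT3H, a subunit gene of the SAGA coactivator, had 240 and 254 CPM in DKO and 246 and 260 CPM in WT (-0.03, adjusted p = 0.61). Inside PRKG1, the RNA processing gene CSTF2T fell (-0.36 ± 0.08, adjusted p = 6.3e-05, 0.102 without WT replicate 1 and 0.0591 without a count filter) where PRKG1 rose. Inside NAALADL2, the antisense RNA NAALADL2-AS3 had 3 and 2 reads in DKO and 18 and 14 reads in WT. It passed the count filter through WT alone, so its lower call (adjusted p = 3.0e-05) is not separate from the filter. That call is no independent support for the fall of its host. The ratio of its summed reads was 0.151, with a 95% exact counting interval of 0.0458 to 0.389, which covers counting error only. DIAPH2-AS1 rose inside DIAPH2 (0.36 ± 0.10, adjusted p = 0.0018), but not without WT replicate 1 (0.32, adjusted p = 0.101) or WT replicate 2 (0.39, 0.0583). The strand setting of the counting is not given in the sources used here, so reads of such pairs may be shared.

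**Figure D5:**
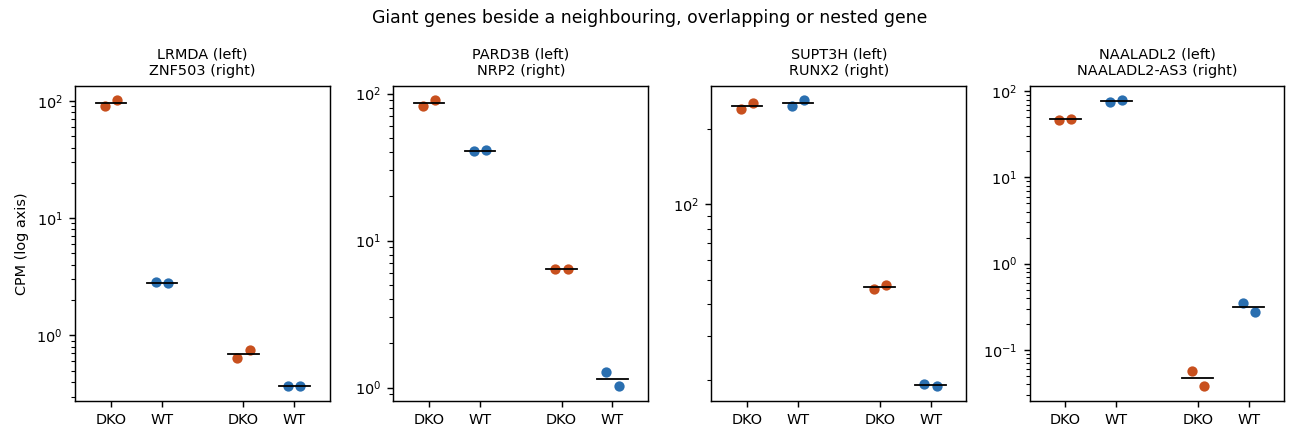
CPM of 4 giant genes (left pair in each panel) and of a neighbouring, overlapping or nested gene (right pair) on log axes, with DKO in orange left of WT in blue. Points are libraries and bars group means. NRP2 is higher in DKO with PARD3B. RUNX2 is at 45.9 and 47.7 CPM in DKO and 19.3 and 18.8 CPM in WT while the SUPT3H groups overlap. NAALADL2-AS3, on 2 to 18 reads, is lower in DKO and passed the count filter through WT alone.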

How the data were processed

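TTchem-seq libraries of 2 DKO and 2 WT samples were analysed, grouped by their titles. Each deposited file lists the authors' raw counts for 1 library by Ensembl ID. The submitters' processing notes name hg38, STAR 2.7.3a and featureCounts 1.6. Gene set, strand setting and counted feature type: not given in the sources used here. Symbols came from a gene name table (42020 of 60656 IDs) and spans from RefSeq (GRCh38.p14, 40210 IDs).

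Counts of all genes were tested in edgeR 4.0.16 (R 4.3.3; glmQLFit and glmQLFTest), modelling group alone, with TMM factors of 0.9923 to 1.005 and filterByExpr at a minimum count of 10. This left 19103 genes, with a biological coefficient of variation of 3.46%. Standard errors are the absolute log2 fold change over the square root of F. With n = 2 the spread is largely pooled over genes. Without an external standard, levels are relative within each library. Replicates differed beyond sampling noise (chi-square per degree of freedom 4.98 in DKO and 4.33 in WT).

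Full values were given for members called at 2-fold or more, the 6 with the highest CPM and the 4 longest, and for others by role. The members, lists and tests were chosen with earlier results of these data known. FHIT, WWOX and other members were further described after their values were seen. The test was checked on simulated counts with 1 spread for all genes and no shift between replicates. Changes were set only in genes with a mean above 50 reads. It recovered 56% of 1.25-fold and 96% of 2-fold changes, and called 3 of 18600 unchanged genes. That check does not cover sparse members or replicates that differ with span. Alternatives were DESeq2 size factors, library totals, upper quartile factors, no count filter, at least 50 reads in 2 libraries, DESeq2 1.42.0, the replicate number as a block, each library left out, and other span and read limits. Protein lengths, planned beside the promoters, were not analysed here. The values of 1 member are not reported here, though its call is in the counts. A run that omits a library takes the spread of the remaining single library from the other group. Figures used matplotlib 3.10.9.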

Additional observations from a re-analysis of the deposited data

How the results depend on the processing

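Counts of called members moved most with the number of libraries and with the filter. With each library left out in turn, 8 to 18 members were called higher and 2 to 8 lower, and 37 to 83 and 6 to 25 of the other long genes. The WT libraries gave the low ends. For members these were 8 rises and 2 falls when WT replicate 1 was omitted, and 9 rises and 3 falls when WT replicate 2 was. All genes then had 1023 higher and 928 lower, or 1467 higher and 1650 lower, against 3632 and 4025. The members' median ran from -0.03 to 0.10 in those runs and that of other long genes from 0.11 to 0.19. Without a count filter 9 members were higher and 3 lower, other long genes 51 and 10, and all genes 1640 and 1655. That run covered 33584 genes, against 19103 in the main run, so its counts over all genes are of a larger total. DESeq2 called 15 members higher and 4 lower, and 2479 and 2524 genes in all. At a span of 800 kb or more, which keeps only a part of the 241 tested, the other long genes had 27 rises, 6 falls and a median of 0.29. With fewer than 20 reads as the limit, 2 members, AUTS2 and TCF4, counted as silent. NBEA, SOX6, MAGI1, WWOX and LSAMP passed the threshold in 1 or more alternatives without passing it otherwise. No call reversed direction in any alternative, and the cause of the shifts was not tested. With the replicate number as a block, 18 members were higher and 6 lower, FRMD4A lost its call (0.16, adjusted p = 0.0552) and NBEA gained 1 (0.09, adjusted p = 0.0479). Deviations of samples with the same number were hardly correlated over all genes (r = 0.0114), and the numbers were not taken as pairs. That value does not describe long genes. Of the 31 members of at least 10 CPM in WT, 30 in DKO and 25 in WT were higher in replicate 2. Whether the numbers mark shared handling was not tested. Depth limits the 15 tested members under 1 CPM in WT, whose standard errors reach 0.40.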
